A study of Rattus norvegicus with 11 samples.

Results

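The genes described here carry the vascular endothelial growth factor (VEGF) signal and set endothelial tone. They were chosen by a list of 8 Ensembl rat gene IDs: Vegfa, the receptors Kdr, Flt1 and Tek, the hypoxia factor subunit Hif1a, the nitric oxide synthase Nos3, the endothelin precursor Edn1 and the endothelin receptor Ednrb. The count table of 37550 features held 4 of the 8, namely Vegfa (ENSRNOG00000019598), Flt1 (ENSRNOG00000000940), Tek (ENSRNOG00000008587) and Nos3 (ENSRNOG00000009348). The IDs listed for Kdr, Hif1a, Edn1 and Ednrb were absent from it and were not replaced, so those 4 genes were not analysed here. Of the table's features, 29682 had Ensembl IDs and the other 7868 were read-assembled loci. No coordinates or names come with those loci, so whether reads of the 4 absent genes lie in them was not tested.

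RNA came from the right ventricle of Sprague Dawley rats, 6 libraries after vehicle (replicates 1 to 6) and 5 after monocrotaline (replicates 1, 2, 3, 4 and 6). Monocrotaline is a plant alkaloid that injures lung vessels in the rat and so loads the right ventricle. The series title places the comparison in right ventricular failure with pulmonary arterial hypertension and names angiogenic abnormalities among its subjects. The labels used here give no dose, time after injection, age or sex, and do not state how many animals stand behind the libraries, so p-values cover the variation among these libraries only, which may be technical.

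VEGF-A is secreted by muscle and stromal cells and acts on endothelial cells, where Kdr (VEGF receptor 2) carries most of the growth signal. Flt1 (VEGF receptor 1) binds the same ligand tightly and, in its soluble form, holds it away from Kdr. Tek (Tie2) is the endothelial receptor for the angiopoietins, which regulate the stability of vessels. Nos3 makes nitric oxide in endothelium, a relaxing signal to the vessel wall. In the heart this system matches the capillary bed to the mass of the muscle.

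Total counts lay between 9581924 and 14438355 per library. More than 25000 features had reads in 3 libraries, vehicle replicates 5 and 6 and replicate 3 of monocrotaline, called here libraries of higher detection. The other 8, with fewer, are called libraries of lower detection. Levels are given as CPM, read counts relative to the scaled library total, with TMM factors, which correct for the make-up of each library. These factors ran from 0.912 to 0.966 with vehicle and from 0.983 to 1.27 with monocrotaline, with the highest in monocrotaline replicate 3. Because the factors moved with treatment, fold changes with library totals alone are given beside the main ones. No file pairs other IDs with gene names, so the labelled tissue could not be checked against marker genes, and endothelial content was not measured. In whole ventricle, fewer endothelial cells and less RNA per endothelial cell cannot be told apart.

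None of the 4 genes passed the test between treatments, and all 4 log2 fold changes, as point estimates, were small. By edgeR's quasi-likelihood test at a Benjamini-Hochberg FDR of 0.05, 0 of 4 were higher and 0 of 4 lower with monocrotaline, where 23.8% of all 15099 tested features were called, 12.7% higher and 11.1% lower. At an unadjusted p under 0.05, 0 of 4 passed, where 37.0% of all features did. DESeq2 and limma-voom each called 0 of 4 as well, where they called 28.4% and 24.9% of all features. All 4 genes passed the filter on low counts. The groups overlapped for 4 of 4, where 10.9% of all features had groups without overlap. Their median absolute log2 fold change was 0.15, and that of all tested features, which were not matched to them on level, was 0.29. Their median signed log2 fold change was 0.05, and that of all tested features was -0.01.

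**Figure D1:**
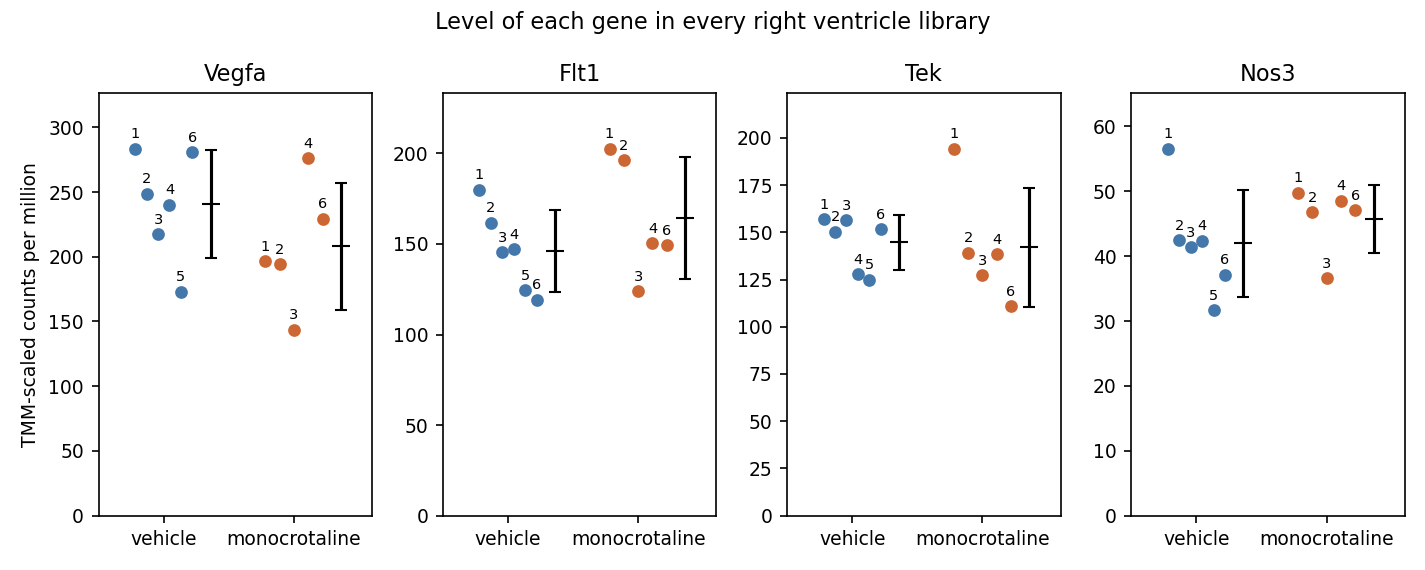
TMM-scaled CPM (vertical axes, starting at 0) of Vegfa, Flt1, Tek and Nos3 in each library, with points numbered by replicate and bars showing mean ± SD for 6 vehicle and 5 monocrotaline libraries. The groups overlap for all 4 genes, and Flt1 and Nos3 are lowest in vehicle replicates 5 and 6 and monocrotaline replicate 3.

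Vegfa, the ligand, had the widest interval of the 4 genes. With vehicle its level ran from 173 CPM in replicate 5 to 284 CPM in replicate 1, with a median of 244 CPM. With monocrotaline it stood at 197, 194, 144, 276 and 229 CPM in replicates 1, 2, 3, 4 and 6. Monocrotaline replicate 3 was the only library of its group below every vehicle library, and monocrotaline replicate 4 was near the top of the vehicle range. The means were 241 ± 41.5 CPM (SD, n = 6) and 208 ± 48.8 CPM (SD, n = 5). The log2 fold change was -0.21 with SE 0.17 and a 95% interval from -0.58 to 0.16 (edgeR, adjusted p = 0.410). The interval runs from 0.669-fold to 1.12-fold of the vehicle level. Scaled by library totals alone, it was -0.02 (edgeR, adjusted p = 0.929). Without monocrotaline replicate 3 it was -0.10 and without monocrotaline replicate 4 it was -0.31 (edgeR, adjusted p = 0.712 and 0.163).

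Flt1, the receptor that also serves as a trap for VEGF-A, had the largest positive fold change of the 4. With vehicle its level ran from 119 CPM in replicate 6 to 180 CPM in replicate 1, with a median of 146 CPM. With monocrotaline it was 203, 196, 124, 150 and 149 CPM in replicates 1, 2, 3, 4 and 6. Monocrotaline replicates 1 and 2 lay above every vehicle library and the other 3 inside the vehicle range. The means were 146 ± 22.7 CPM (SD, n = 6) and 164 ± 33.7 CPM (SD, n = 5). The log2 fold change was 0.17 with SE 0.15 and a 95% interval from -0.16 to 0.50 (edgeR, adjusted p = 0.457). The counts do not separate the soluble form of Flt1 from the membrane form.

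Scaling moved Flt1 more than any single library did. With library totals alone its log2 fold change was 0.37 with a 95% interval from 0.07 to 0.68, and it missed the threshold with an adjusted p of 0.0643 (edgeR). On this scale the median of all tested features was itself at 0.21, so Flt1 lay above the median feature by a similar amount under both scalings. With library totals and without monocrotaline replicate 4 as well, Flt1 was called higher (log2 fold change 0.43, edgeR adjusted p = 0.0317). That fit called 5767 of all 15314 tested features in either direction. With TMM factors and without monocrotaline replicate 4, Flt1 was not called (0.22, edgeR adjusted p = 0.334), where 4831 of 15314 features were. Leaving out monocrotaline replicate 1 or 2 brought the value to 0.08 or 0.10 (edgeR, adjusted p = 0.762 and 0.716).

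Tek, the angiopoietin receptor, had nearly equal group means. With vehicle it ran from 125 CPM in replicate 5 to 157 CPM in replicate 1, with a median of 151 CPM. With monocrotaline it was 194, 139, 127, 138 and 111 CPM in replicates 1, 2, 3, 4 and 6. Replicate 1 lay above and replicate 6 below every vehicle library. The means were 145 ± 14.5 CPM (SD, n = 6) and 142 ± 31.4 CPM (SD, n = 5). The log2 fold change was -0.03, with SE 0.14 and a 95% interval from -0.33 to 0.27 (edgeR, adjusted p = 0.910). The relative spread was 10.02% of the mean with vehicle and 22.1% with monocrotaline, a difference that was not tested. Without monocrotaline replicate 1 the log2 fold change was -0.17, and with library totals alone it was 0.19 (edgeR, adjusted p = 0.356 and 0.340), so the data give Tek no direction.

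Nos3, the endothelial nitric oxide synthase, was the least counted of the 4, with 326 to 750 reads per library. With vehicle it ran from 31.7 CPM in replicate 5 to 56.6 CPM in replicate 1, with a median of 41.9 CPM. With monocrotaline it was 49.8, 46.8, 36.6, 48.5 and 47.0 CPM in replicates 1, 2, 3, 4 and 6. All 5 monocrotaline libraries lay inside the vehicle range, although 4 of them exceeded every vehicle library except replicate 1, which was also the most deeply sequenced library of all. The means were 42.0 ± 8.28 CPM (SD, n = 6) and 45.7 ± 5.26 CPM (SD, n = 5). The log2 fold change was 0.12 with SE 0.14 and a 95% interval from -0.17 to 0.42 (edgeR, adjusted p = 0.560).

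As with Flt1, the Nos3 value depended on scaling and on single libraries. With library totals alone its log2 fold change was 0.33 with a 95% interval from 0.06 to 0.59 and an adjusted p of 0.0609 (edgeR). On that scale all 5 monocrotaline libraries, at 45.9 to 53.3 CPM, lay above 5 of the 6 vehicle libraries, and vehicle replicate 1 was at 51.9 CPM. Without vehicle replicate 1 the TMM-scaled log2 fold change was 0.23, and without vehicle replicate 5 it was 0.05 (edgeR, adjusted p = 0.190 and 0.803). Fitted with library totals alone, 2 of the 4 genes, Flt1 and Nos3, had an unadjusted p under 0.05 by edgeR, where 41.4% of all features did. In that fit 0 of 4 had an adjusted p under 0.05, where 30.0% of all features were called and 23.5% were called higher. In the 8 libraries of lower detection with library totals, the log2 fold change was 0.31 for Flt1 and 0.23 for Nos3, and both 95% intervals began at -0.06 (edgeR, adjusted p = 0.235 and 0.262).

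**Figure D2:**
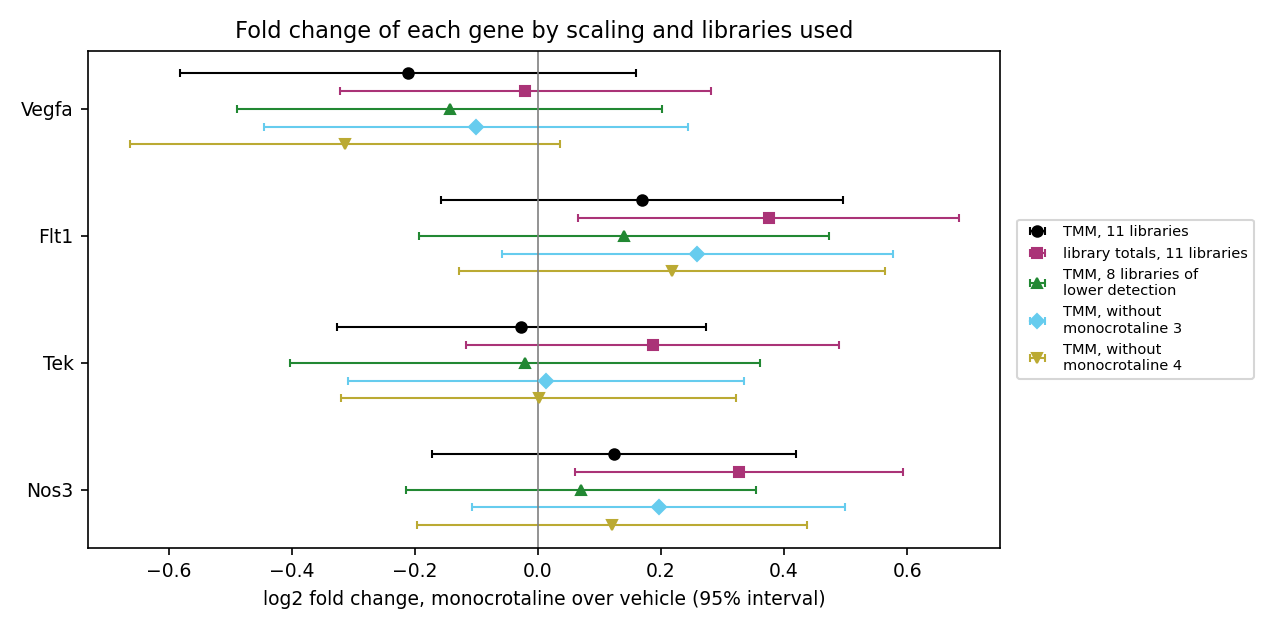
Log2 fold change of monocrotaline over vehicle (horizontal axis) with its 95% interval from edgeR for each gene, under TMM factors and library totals and with libraries left out. Every TMM interval shown spans 0, and with library totals the intervals of Flt1 and Nos3 lie above 0, starting at 0.07 and 0.06.

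Counting error alone would give a smaller spread than was seen between libraries. The expected counting error was between 1.63% and 2.35% of the value for Vegfa, between 1.88% and 3.09% for Flt1, between 2.15% and 2.76% for Tek and between 3.65% and 5.54% for Nos3. The TMM-scaled spread within a group ran from 10.02% for Tek with vehicle to 23.5% for Vegfa with monocrotaline. With library totals alone it reached down to 5.97% for Nos3 with monocrotaline, near its counting error in those libraries. Among all tested features, not matched on level, 38.5% had a smaller absolute log2 fold change than Vegfa and 31.8% a smaller one than Flt1. The share was 24.2% for Nos3 and 5.62% for Tek.

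**Figure D3:**
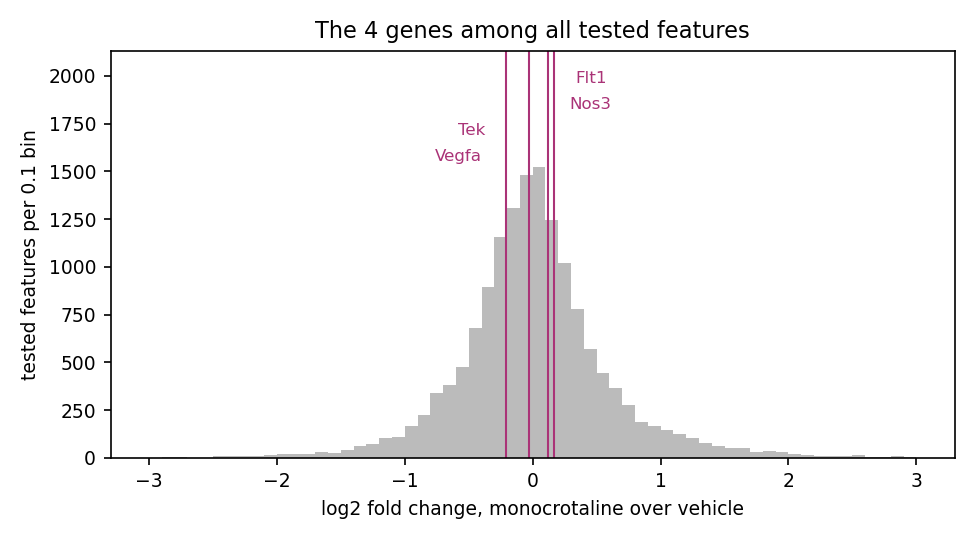
Number of tested features (vertical axis) per 0.1 of log2 fold change of monocrotaline over vehicle (horizontal axis, shown from -3 to 3), with lines at the 4 genes. From left to right the lines are Vegfa at -0.21, Tek at -0.03, Nos3 at 0.12 and Flt1 at 0.17, all in the body of the distribution.

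The authors' deposited table gave the same picture for these genes, and being from the same series it is no independent result. In the authors' deposited table the log2 fold change was -0.21 for Vegfa with an FDR of 0.513 and 0.17 for Flt1 with an FDR of 0.575. For Tek the authors' deposited table gave -0.03 with an FDR of 0.941, and for Nos3 it gave 0.12 with an FDR of 0.689. The IDs of Kdr, Hif1a, Edn1 and Ednrb were absent from the authors' deposited table too.

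Ratios between the genes within a library do not depend on scaling factors, and they are given as a description with no test. They are ratios of counts and not per length, so only their difference between groups is read. The log2 ratio of Vegfa to Flt1 averaged 0.71 ± 0.27 over the 6 vehicle libraries (SD) and 0.33 ± 0.40 over the 5 monocrotaline libraries (SD), a difference of -0.38. It stood at -0.04, -0.01, 0.22, 0.88 and 0.62 in monocrotaline replicates 1, 2, 3, 4 and 6, and the first 3 of these lay below every vehicle library, whose lowest was 0.48. The log2 ratio of Vegfa to Nos3 averaged 2.52 ± 0.21 over the 6 vehicle libraries (SD) and 2.16 ± 0.23 over the 5 monocrotaline libraries (SD), a difference of -0.36. Here 4 of 5 monocrotaline libraries, at 1.97 to 2.29, lay below the lowest vehicle value of 2.33, and monocrotaline replicate 4 was at 2.51, inside the vehicle range. The ligand was thus lower relative to Flt1 in 3 and relative to Nos3 in 4 of the 5 monocrotaline libraries than in any vehicle library, and the groups overlapped. Both ratios share Vegfa, and Flt1 and Nos3 varied together, so they are not separate results. Relative to Tek, 2 of 5 monocrotaline libraries lay below every vehicle library and 2 above, up to 1.05 against a vehicle maximum of 0.91.

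Ratios among the endothelial genes shifted less. The difference between groups in log2 ratio was 0.02 for Flt1 to Nos3, 0.21 for Flt1 to Tek and -0.19 for Tek to Nos3, and it was -0.18 for Vegfa to Tek. Leaving out 1 library gave shifts that were in some cases large beside the difference itself. Flt1 to Nos3 ran from -0.039 without monocrotaline replicate 2 to 0.07 without monocrotaline replicate 4, and it was also negative without vehicle replicate 1, vehicle replicate 6 or monocrotaline replicate 1. Flt1 to Tek fell to 0.13 without vehicle replicate 6 and to 0.14 without monocrotaline replicate 2. Tek to Nos3 was -0.09 without monocrotaline replicate 6, and Vegfa to Tek ran from -0.045 without monocrotaline replicate 1, through -0.085 without monocrotaline replicate 3 and -0.29 without monocrotaline replicate 4, to -0.30 without monocrotaline replicate 6. Each of the 4 differences over all libraries was within the pooled SD of the libraries of its pair, which lay between 0.16 and 0.35. The differences for Vegfa to Flt1 and Vegfa to Nos3 exceeded their pooled SDs of 0.34 and 0.22. For Vegfa to Flt1 this rested on single libraries. Its difference was -0.28 without vehicle replicate 6, -0.29 without monocrotaline replicate 1 and -0.30 without monocrotaline replicate 2. Vegfa to Nos3 stayed between -0.45 and -0.28 with any 1 library left out.

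**Figure D4:**
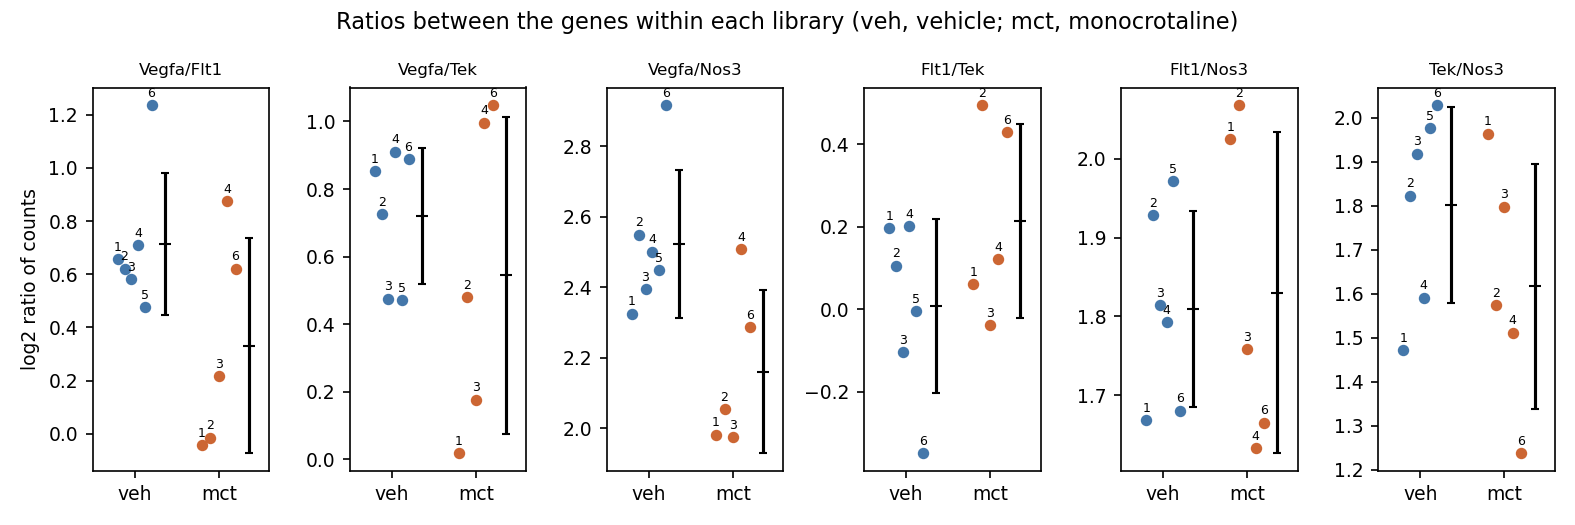
Log2 ratio of counts within each library (vertical axes, a separate range per panel) for the 6 pairs of genes, with points numbered by replicate and bars showing mean ± SD for 6 vehicle and 5 monocrotaline libraries. Vegfa to Nos3 is lower in 4 of 5 monocrotaline libraries than in any vehicle library, and all pairs overlap between groups.

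Flt1 and Nos3, both endothelial genes, varied together over the 11 libraries, a relation that missed the threshold within the 8 of lower detection. Over the 11 libraries their log2 CPM values had a Pearson r of 0.81 (permutation p = 0.00284, Benjamini-Hochberg adjusted p = 0.0170 over the 6 pairs) and a Spearman rho of 0.85 (permutation p = 0.00207, adjusted p = 0.0124). Without the 2 libraries farthest from the Flt1 median, monocrotaline replicates 1 and 2, r was 0.88 (exact permutation p = 0.00229). With deviations from the group means r was 0.78 (permutation, adjusted p = 0.0159). That permutation mixed the deviations of both groups, each centred on its own mean, so its p is only approximate. Within the 6 vehicle libraries r was 0.90 (exact permutation p = 0.0153, adjusted p = 0.0917). Each of these settings kept libraries of higher detection, so none of them tests the split by detection. No correlation is given for the 5 monocrotaline libraries, fewer than the 6 taken as the least for one.

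Within the 8 libraries of lower detection r was 0.55 (exact permutation p = 0.158, adjusted p = 0.473), and the 3 libraries of higher detection were too few for a value. Those 3 libraries had the 3 lowest TMM-scaled levels of both genes, at 119, 124 and 124 CPM for Flt1 and 31.7, 36.6 and 37.2 CPM for Nos3. With treatment in the model, the log2 difference between libraries of higher and lower detection was -0.42 with SE 0.14 for Flt1 and -0.40 with SE 0.12 for Nos3. By edgeR these had unadjusted p-values of 0.00847 and 0.00500 and adjusted p-values of 0.150 and 0.110, where 2.51% of all features were called. For Vegfa and Tek the differences were -0.31 and -0.13 (edgeR, adjusted p = 0.513 and 0.770). This comparison by detection was added after the levels were seen, so its p-values for Flt1 and Nos3 are no independent test. Scaled by library totals, monocrotaline replicate 3 left the bottom of the order for both genes, and 2 of the 3 lowest libraries remained of higher detection.

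The other 5 pairs did not pass. Pearson r over the 11 libraries was 0.52 for Flt1 and Tek and 0.50 for Vegfa and Nos3 (permutation, adjusted p = 0.234 for both). It was 0.37 for Tek and Nos3, 0.21 for Vegfa and Tek and 0.14 for Vegfa and Flt1 (permutation, adjusted p = 0.397, 0.651 and 0.669). The matching Spearman rho values were 0.44, 0.47, 0.45, 0.39 and 0.12 (permutation, adjusted p = 0.274, 0.274, 0.274, 0.285 and 0.735). Without vehicle replicate 5 and monocrotaline replicate 3, the libraries farthest from the Vegfa median, r of Vegfa was -0.03 with Nos3, -0.17 with Tek and -0.58 with Flt1 (exact permutation p = 0.929, 0.676 and 0.102). Without the 2 libraries farthest from the median of the first gene named, r was 0.30 for Flt1 and Tek and 0.52 for Tek and Nos3 (exact permutation p = 0.426 and 0.154). Within the 8 libraries of lower detection, r of Vegfa was 0.31 with Nos3, -0.23 with Tek and -0.45 with Flt1 (exact permutation, adjusted p = 0.598, 0.598 and 0.515). Other settings raised r of Vegfa and Nos3, to 0.70 with deviations from the group means (permutation p = 0.0172, adjusted p = 0.0517, both approximate as above). It was 0.69 without vehicle replicate 6 and 0.70 in the 6 vehicle libraries (permutation, adjusted p = 0.0693 and 0.292).

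**Figure D5:**
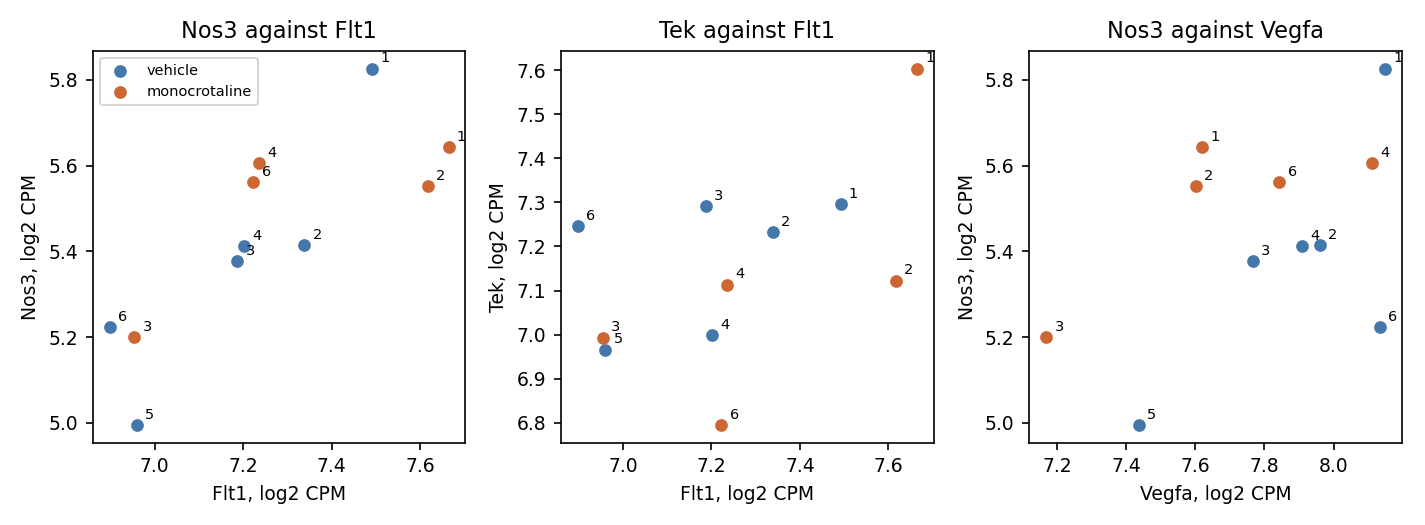
Log2 CPM of Nos3 against Flt1, Tek against Flt1 and Nos3 against Vegfa, with 1 point per library, numbered by replicate and coloured by treatment. In the first panel vehicle replicates 5 and 6 and monocrotaline replicate 3 lie together at the lower left, and r over the 11 libraries is 0.81.

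Among 15098 other tested features ranked by Pearson r with Nos3, Flt1 was at rank 17, and among those ranked by r with Flt1, Nos3 was at rank 67. By deviations from the group means the ranks were 66 and 205. The median r of all features over the 11 libraries was -0.003 with Nos3 and -0.01 with Flt1. Tek was at rank 1297 for Flt1 and at rank 1863 for Nos3, well behind. Vegfa was at rank 786 for Nos3, ahead of Tek, and at rank 5524 for Flt1. By deviations from the group means, Vegfa was at rank 211 and Tek at rank 2017 for Nos3. For Flt1 those ranks were 3569 and 1107. The points of these correlations share their libraries, depth and scaling factors, and no p is given for a rank.

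The RefSeq sequences before the start sites of Flt1 and Nos3 are shown because these were the genes whose levels went together. Each is the 250 bases upstream of the annotated start in GRCr8, a build that was not matched to that of the counts, at chr12:12333180-12333429 on the plus strand for Flt1 and chr4:11706582-11706831 on the minus strand for Nos3. Capitals mark GGAA, the core bound by ETS factors, a family that is active in endothelium, or its reverse complement TTCC.
Flt1: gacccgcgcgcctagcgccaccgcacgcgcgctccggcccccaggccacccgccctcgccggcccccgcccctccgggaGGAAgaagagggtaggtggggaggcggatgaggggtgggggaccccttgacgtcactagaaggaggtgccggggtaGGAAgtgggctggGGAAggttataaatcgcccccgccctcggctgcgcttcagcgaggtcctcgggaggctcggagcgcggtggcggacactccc
Nos3: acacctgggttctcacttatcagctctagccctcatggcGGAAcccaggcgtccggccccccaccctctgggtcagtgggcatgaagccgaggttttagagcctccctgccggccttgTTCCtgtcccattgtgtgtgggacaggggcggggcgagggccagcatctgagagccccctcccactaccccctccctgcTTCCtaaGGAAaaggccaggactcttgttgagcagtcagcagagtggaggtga
Flt1 has 3 matches, all as GGAA, and Nos3 has 4, with 2 on each strand. Of 33469 upstream regions of this length in the RefSeq table, 93.2% hold at least 1 match and the median is 3, so the matches do not set these promoters apart. Of the 4 measured genes, 3 were matched in the promoter table: Flt1, Nos3 and Vegfa.

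The features whose levels followed each gene most closely over the 11 libraries can be given only as IDs, since no file pairs them with names. For Vegfa they were ENSRNOG00000015614 and ENSRNOG00000013660, with Pearson r of 0.92 and 0.91. Their log2 fold changes were -0.18 and -0.28, and neither passed the test between treatments (edgeR, adjusted p = 0.536 and 0.247). For Flt1 they were ENSRNOG00000027357 and ENSRNOG00000013683 (r = 0.93 and 0.92). For Tek they were ENSRNOG00000012162 and ENSRNOG00000019718 (r = 0.88 and 0.85), and for Nos3 ENSRNOG00000018836 and ENSRNOG00000004794 (r = 0.88 and 0.87). These are the highest of all correlations with tested Ensembl IDs of sufficient level and describe these 11 libraries.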

How the data were processed

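The authors deposited whole-number read counts per feature with no normalization, 1 column per library. Per the submitters' processing notes, the tools included HISAT2, StringTie, cutadapt, FastQC and bcl2fastq. Per the labels' protocols, libraries were ribosomal RNA depleted and stranded. For tool versions, build, annotation and the strand setting of the counts, the entry is: not given in the sources used here. A second table that the authors deposited holds log2 fold changes, log2 CPM, p-values and FDR, per the file headers.

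Groups and replicate numbers came from the sample titles, and 0 columns belonged to other samples. Members were paired with symbols by the list that defined them, since 0 IDs matched the RefSeq table (GRCr8). The 10 pathway lists and 8 marker lists were therefore not analysed here. Nor were the planned ratios, which each need an absent gene, and the 6 pairs of measured genes replaced them. The members and lists were chosen with earlier results of these data known.

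The main test was edgeR 4.0.16 (quasi-likelihood, robust, TMM) in R 4.3.3 after filterByExpr (minimum count 10, minimum total 15), with Benjamini-Hochberg adjustment over 15099 features. Standard errors are the size of the log2 fold change divided by the root of F, and 95% intervals use the moderated degrees of freedom. Log2 CPM for correlations used a prior count of 2, and correlations 100000 permutations, or all below 10 libraries, two-sided. DESeq2 1.42.0 and limma 3.58.1 were alternatives. The steps were tested on simulated data. No library was a copy: over 55 pairs, chi-square divided by its degrees of freedom was at least 15.5 across features whose mean count was 10 or more. The text names all members, and for each the 2 Ensembl IDs of average log2 CPM of at least 1 with the highest r, where Flt1, Tek and Nos3 replaced Kdr and Edn1.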

Additional observations from a re-analysis of the deposited data

Results flagged for a closer look

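Among 20 groups of values, 4 genes and 6 ratios in each treatment, 2 had a library whose gap to its nearest neighbour was large for the group's range, where chance alone gives about 1 in 20. Nos3 stood at 36.6 CPM in monocrotaline replicate 3, against 46.8 CPM for the next monocrotaline library. With library totals alone it was at 45.9 CPM there and the other 4 began at 47.6 CPM. The log2 ratio of Vegfa to Flt1 was 1.24 in vehicle replicate 6, against 0.71 for the next vehicle library. That library held the lowest Flt1 level of all and the second highest Vegfa level.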

How the results depend on the processing

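Over 25 alternatives, which are 24 distinct fits because the 10 libraries without a block are those left without vehicle replicate 5, Flt1 and Nos3 kept a positive log2 fold change, Vegfa changed sign in 2 and Tek in 8, and 1 call was made. Leaving out each library gave log2 fold changes of -0.31 to -0.10 for Vegfa, 0.08 to 0.26 for Flt1, -0.17 to 0.049 for Tek and 0.05 to 0.23 for Nos3, with 0 members called by edgeR in any. With library totals alone Tek turned to 0.19. The combinations of library totals with fewer libraries were chosen after seeing the data. With the 8 libraries of lower detection they gave 0.0071 for Vegfa, 0.14 for Tek, 0.31 for Flt1 and 0.23 for Nos3. Without monocrotaline replicate 3 they gave 0.042 for Vegfa and 0.17 for Tek. Without monocrotaline replicate 4 they gave 0.23 for Tek and 0.43 for Flt1, the 1 member called higher, where 5767 of all 15314 features were called. The cause of these changes was not tested. Alternatives for the correlations were also chosen after seeing the data. For Flt1 and Nos3, r was 0.55 in the 8 libraries of lower detection, where it was 0.81 over all 11, and the reason was not tested. In the 6 vehicle libraries r was 0.90. Neither passed the threshold, and both had fewer samples. Without each library r of Flt1 and Nos3 was 0.78 to 0.84. For Vegfa and Flt1, r turned to -0.15 without monocrotaline replicate 3 (-0.15 to 0.37 over all libraries left out) and to -0.45 in the 8 libraries. For Vegfa and Tek it turned to -0.23 in the 8 and to -0.085 with library totals. With deviations from the group means, r of the ID most alike was 0.92 for Vegfa, 0.93 for Flt1, 0.91 for Tek and 0.87 for Nos3. Leaving out each library, the ratio difference ranged from -0.52 to -0.28 for Vegfa to Flt1 and from -0.45 to -0.28 for Vegfa to Nos3. The range was -0.30 to -0.045 for Vegfa to Tek and 0.13 to 0.27 for Flt1 to Tek. It was -0.039 to 0.07 for Flt1 to Nos3 and -0.27 to -0.09 for Tek to Nos3.

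Deviations from the group mean correlated at 0.06, -0.03, -0.21, 0.16 and -0.20 between libraries of the same number, which gave no sign of pairing. In a fit with a replicate block, on the 10 libraries with a number in both groups, log2 fold changes were -0.31 for Vegfa, 0.12 for Flt1, -0.09 for Tek and 0.06 for Nos3 (edgeR, adjusted p = 0.205, 0.612, 0.737 and 0.780). Over all features the block gave 2579 calls, against 3172 on the same libraries without it. The lowest count of the 4 genes in any library was 326, and other depths were not tested.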
